A study of Mus musculus with 10 samples.

Results

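Vestibular pendrin epithelial cells were examined in single-cell libraries of the vestibular organs of old mice. Cells were chosen by a rule on measured transcripts: a unique molecular identifier (UMI, 1 counted transcript) in at least 3 of the 7 genes Abca13, Slc26a4, Mia, Cidea, Itgbl1, Fxyd3 and Cdo1, and in fewer than 3 of the hair cell genes Myo6, Myo7a, Pou4f3, Tmc1, Kncn and Gfi1. The rule found 710 cells among 10424 vestibular cells (6.81%) that passed limits on quality, namely 200 or more detected genes, 1000 or more UMIs and a mitochondrial share below 25%. All libraries came from wild-type CBA/J mice aged 22 months, with no treatment, and each held the organs of 7 to 8 male and female mice pooled after microdissection, so a library and not a mouse is the replicate. The vestibular libraries are replicates 1, 3, 4 and 5, and 4 libraries in a row of values below are always given in that order. Libraries of the cochlea of mice of the same strain, genotype and age, replicates 1, 3, 4 and 5, gave 217 such cells among 7272. In both organs replicate 2 repeated replicate 1. Of its 1641 vestibular barcodes 1633 were also in replicate 1, the 2 libraries' counts differed by less than the sampling noise, and the pair was counted as 1 sample. No other pair of vestibular libraries shared more than 8 kept barcodes, and no pendrin cell barcode recurred in a second library. The 710 cells held 431373, 1672008, 658341 and 267065 UMIs in the 4 libraries, so the sum was largest in replicate 3 and smallest in replicate 5. Per pendrin cell the order differed, with medians of 2614.5, 2531.5, 2708 and 3101 UMIs. No doublet caller was run; 7.89% of the cells chosen held more than 10000 UMIs, against 4.12% of the other kept cells.

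Pendrin, the product of Slc26a4, is an anion exchanger that moves chloride, iodide and bicarbonate. In the inner ear it lies in the apical membrane of nonsensory epithelial cells around the sensory patches of the vestibule, in the endolymphatic sac and in cells of the cochlear lateral wall, where it secretes bicarbonate into endolymph. Loss of pendrin causes acid endolymph, an enlarged vestibular aqueduct, malformed otoconia and deafness with balance problems. Its neighbours include the supporting cells of the sensory patches, which make the gel over the hair cells, and the dark cells, which secrete potassium.

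The share of kept cells that met the rule differed between libraries. It was 12.9% in replicate 1 (112 of 867 cells, exact 95% binomial interval 10.8 to 15.3%), 7.28% in replicate 3 (396 of 5438, 6.61 to 8.01%), 5.68% in replicate 4 (139 of 2448, 4.79 to 6.67%) and 3.77% in replicate 5 (63 of 1671, 2.91 to 4.798%). The interval of replicate 1 lay above all others, while those of replicates 3 and 4 and those of replicates 4 and 5 overlapped at their ends; they cover counting error only. In the cochlea the share was 1.93, 2.72, 5.32 and 3.31%. Organs were microdissected and, by the paper's account, their sensory epithelia were digested. These shares therefore also depend on the dissection and on which cells survived and were captured, which was not tested. Among the 710 cells, 304 had exactly 3 of the 7 genes, 198 had 4, 122 had 5, 72 had 6 and 14 had all 7, while 556 cells just outside the rule had 2. Cells with 2 of the genes held a median of 2281 UMIs and cells with 3 a median of 2594, and the mean level of Mia, which the rule used, went from 1633 to 3407 CPM (the UMIs of a gene summed over the cells of a library and scaled to a library total of 1000000). The rule depends on depth: with every cell thinned to 1000 UMIs, 378 cells met it.

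The markers of the label are described here. They were chosen with earlier results of these data known, so finding them together is no independent check of the label. A UMI of Slc26a4 was found in 355 of the 710 cells, Mia in 657, Cdo1 in 593, Fxyd3 in 524, Abca13 in 250, Cidea in 241 and Itgbl1 in 224. Each gene was also described in cells that met the rule through the other 6 genes alone. These cells and those with none of the other 6 were not matched for depth. Slc26a4 was then found in 43.6% of 629 such cells against 0.739% of 5415 cells with none of the other 6, and Abca13 in 31.3% against 1.65%, Cidea in 28.2% against 0.297% and Itgbl1 in 24.4% against 1.63%. For Mia the shares were 88.3% and 12.4%, for Cdo1 75.8% and 8.35%, and for Fxyd3 64.6% and 5.32%. Held out, Slc26a4 was found in 47.0, 46.2, 31.1 and 48.1% of cells in the 4 libraries, against 0.303 to 0.905% of the cells with none of the others. In macrophage-like cells, which should lack these genes, Slc26a4 was found in 3 of 265 cells (1.13%) at a median of 2588 UMIs, close to the 2622 of the cells chosen. Of 1995 vestibular cells with 3 or more hair cell genes, 161 also had 3 or more of the 7 rule genes. The rule left them out, and the source of these counts was not tested.

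Markers of another cell type were counted in many of the same cells. Of the 710 cells 315 met a supporting cell gate, a UMI in at least 3 of Otog, Otogl, Sox2, Lfng, Slc1a3, Tectb and Otoa. With 1 more marker in the list, 3 of 8 supporting cell markers were found in 44.6% of the cells chosen and in 6.40% of the other kept cells. Cells with a Slc26a4 UMI met the supporting cell gate more often (186 of 355, 52.4%) than those without (129 of 355, 36.3%). They were also deeper, with a median of 2731 against 2540 UMIs. Depth favours both detections, and its part was not tested. The 710 cells are called pendrin cells below by the rule that chose them, which is a gate on transcripts and not a purified cell type. Of all 710 cells, 72 held a Nox3 UMI, 6 met a dark cell gate and 5 a macrophage gate. These groups are not exclusive and can share cells with the 315 of the supporting cell gate.

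Of the rule genes, Slc26a4 (chr12:31519827-31559969, minus strand; all positions are GENCODE genes on GRCm38, the build of the files' mm10) stood at 419.6, 407, 216 and 412 CPM in the 4 libraries. The levels in replicates 1, 3 and 5 were close to each other, and replicate 4 was about 2-fold lower. All other kept cells of the same libraries held 10.3, 9.35, 4.91 and 10.5 CPM. Abca13 (chr11:9191942-9684259), a very large transporter of the ATP-binding cassette family, stood at 220.2, 313, 112 and 221 CPM and was also lowest in replicate 4. Mia (chr7:27179742-27181157), a small secreted protein first known from melanoma and cartilage, was by far the most counted rule gene, with 7279, 5812, 7362 and 4883 CPM against 189, 179.9, 213 and 70.2 in the other cells.

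Cidea, a lipid droplet protein best known from brown fat, was at 134, 114, 112 and 93.6 CPM, a narrow range. Cdo1, cysteine dioxygenase, the enzyme that starts the path from cysteine to taurine, was at 992, 722, 667 and 558 CPM. Fxyd3 (chr7:31068172-31076704), a small membrane protein that regulates the sodium pump, was at 749, 711, 477 and 842 CPM, and Itgbl1 (chr14:123659971-123975618), an integrin beta-like protein, at 141, 100.5, 106 and 93.6 CPM. No library of the pendrin cells overlapped the other cells in any of the 7 genes, which the rule brings about.

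**Figure D1:**
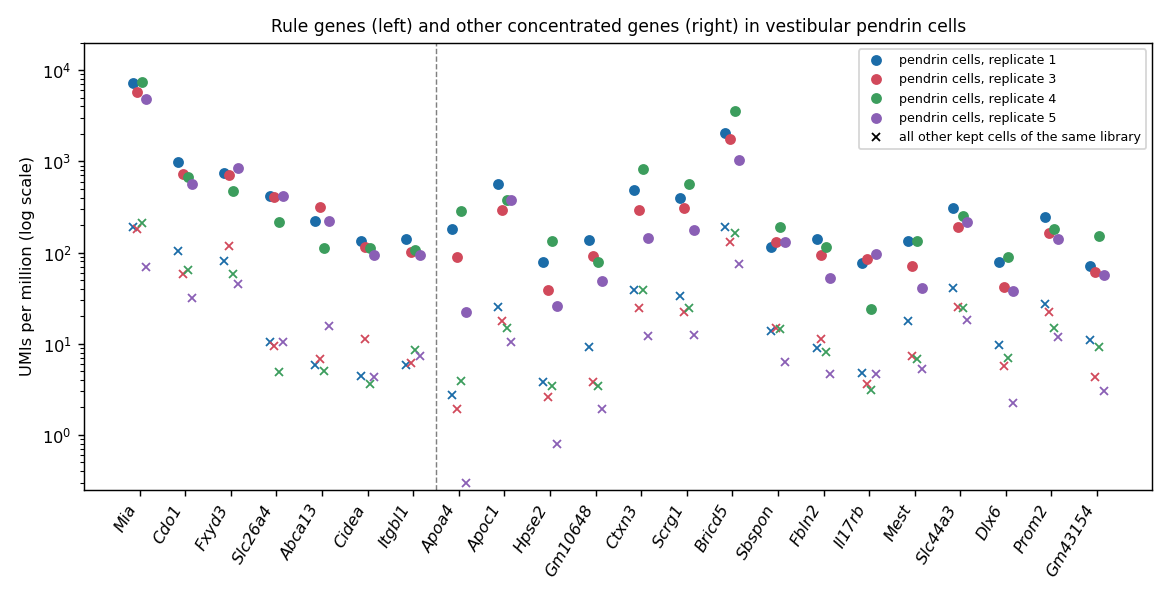
Levels of the 7 rule genes (left of the dashed line) and of the 15 genes not in the rule that were most concentrated in pendrin cells (right), in CPM on a log axis; filled circles are pendrin cells and crosses all other kept cells of the same library, coloured by library, and a level under 0.3 is drawn at 0.3. For every gene shown, each of the 4 pendrin libraries lies above all 4 crosses, and replicate 4 is lowest for Slc26a4, Abca13, Fxyd3 and Il17rb.

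Other transcripts were higher in the same cells than in all other kept cells together, which hold small populations at similar levels. These values are a description, since cells selected on correlated genes will carry more of them. Apoc1 (chr7:19689481-19692660) and Apoa4, apolipoproteins that sit on lipid particles, stood out. Apoc1 was at 559, 294, 381 and 374 CPM in pendrin cells against 25.1, 17.6, 15.04 and 10.3 in the other cells, 16.6-fold or more higher in each library. Apoa4 (chr9:46240696-46243459) was at 181, 89.7, 286 and 22.5 CPM against 2.75, 1.92, 3.87 and 0.159, and varied by more than 10-fold between libraries. Bricd5 (chr17:24473884-24475469), a BRICHOS domain protein, was the most counted of these genes, at 2065, 1777, 3585 and 1041 CPM against 188, 130.3, 162 and 74.5, and a UMI of it was found in 80.6% of pendrin cells, in 16.8% of all other cells and in 6.79% of macrophage-like cells. Thinned to 1000 UMIs these shares were 60.7, 9.23 and 1.89%.

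Ctxn3, a small membrane protein of the cortexin family, was at 489, 293, 819 and 146 CPM against 39.3, 24.6, 38.6 and 12.2. Scrg1, a small secreted protein, was at 392, 304, 559 and 176 CPM against 33.1, 22.1, 24.7 and 12.4. For both, replicate 4 was highest and replicate 5 lowest. Hpse2, a relative of heparanase, Sbspon and Fbln2, proteins of the extracellular matrix, and Prom2, a protein of membrane protrusions, had means of 69.4 ± 48.4, 143 ± 34.2, 100.1 ± 36.6 and 183 ± 43.8 CPM (SD, n = 4 libraries). The receptor Il17rb stood at 70.9 ± 32.2, the choline transporter-like Slc44a3 at 242 ± 52.3, the imprinted gene Mest at 94.3 ± 45.4 and the homeobox gene Dlx6 at 61.9 ± 26.2 CPM. The remaining genes of the 15, Gm10648 and Gm43154, are named only by gene models. In each library all 15 were 6.52-fold or more higher in pendrin cells than in the rest, but not all were particular to them. Sbspon was at 116, 131, 193 and 131 CPM in pendrin cells and 163, 148, 170.2 and 135 in cells with a UMI of Nox3, and Fbln2 had means of 100.1 and 84.8. Prom2 and Slc44a3 had means of 198 and 227 CPM in dark cells and 193 and 226 in cochlear cells of the same rule, with overlapping libraries. Hpse2, Il17rb, Mest, Dlx6 and Gm43154 overlapped with supporting cells, Il17rb and Dlx6 with Nox3 cells, Ctxn3 with dark cells and Apoa4 and Il17rb with the cochlear cells.

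The most counted transcripts of pendrin cells outside the mitochondrial and ribosomal protein genes were, by the mean CPM over libraries, Malat1, the repeat-rich Gm42418 and the hemoglobin gene Hbb-bs, followed by Mia. The mean of Hbb-bs rested on replicate 5 (48.7, 5785, 4476 and 24990.2 CPM), and by summed UMIs Ptgds (24200) stood above Hbb-bs (19315) and Mia (19009). Ptgds, a prostaglandin synthase that also carries small lipids, S100a1, a calcium-binding protein, Cst3, a protease inhibitor, Apoe and Itm2b came next. S100a1 was at 4328, 3836, 5044 and 3703 CPM and Cst3 at 3864, 4420.4, 4648 and 3831 CPM, both even across libraries and above the other cells (means of 2268 and 1533). Ptgds was lower in pendrin cells (3440.2, 10928, 5129.6 and 3995 CPM) than in the rest (mean 44019). Between genes these levels compare counts of tags from the 3′ end and were not set against transcript length.

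Pendrin cells also differed among themselves by the number of rule genes counted. From cells with 3 genes to cells with 6 or 7, the mean over libraries of Apoc1 went from 242 (libraries 144 to 313) to 904 CPM (370.4 to 1537), and that of Bricd5 from 1603 (1269 to 1926) to 3198 (1345 to 5873). The lowest library of the upper class lay within the range of the lower class for Bricd5 and above it for Apoc1. Tectb, a tectorin of the gel over the sensory patches, was at 79.4 CPM (0 to 294) with 3 genes and 1.62 (0 to 6.47) with 6 or 7. The ranges overlapped and the former mean rested on its highest library, so no trend over the libraries is read from it. Among pendrin cells without a Slc26a4 UMI, Tectb stood at 0, 435, 18.8 and 0 CPM in the 4 libraries. Vmo1, a secreted protein of the vitelline membrane outer layer family, was at 1063 CPM (29.8 to 2994) with 4 genes and had no UMI with 6 or 7. Otog, which encodes otogelin of the same gel, was at 1643 and 1693 CPM, and Hbb-bs went from 15549 (37.6 to 36169) to 78.3 CPM (19.9 to 152).

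**Figure D2:**
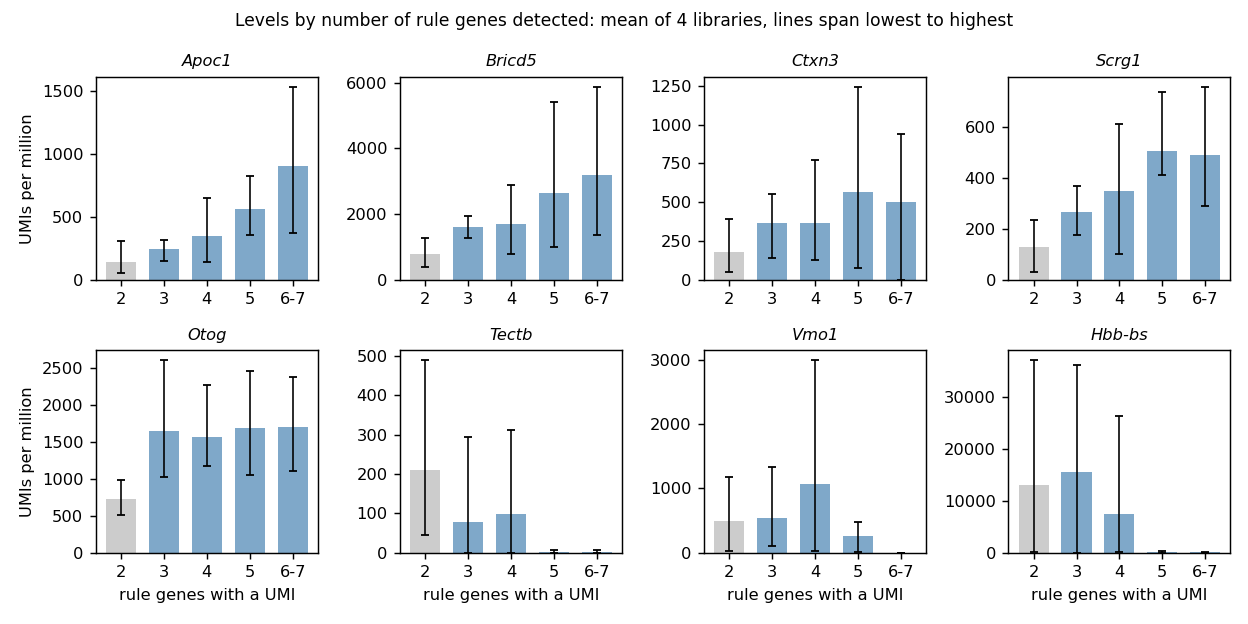
Mean level over 4 libraries of 8 genes, in CPM, by the number of rule genes with a UMI in a cell; grey bars are cells just outside the rule (2 genes), blue bars pendrin cells, and lines run from the lowest to the highest library. The means of Apoc1 and Bricd5 are higher with each added gene while the ranges of neighbouring classes overlap, those of Tectb, Vmo1 and Hbb-bs are near 0 at the right, and that of Otog is level from 3 genes on.

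Pendrin cells with a Slc26a4 UMI and those without were compared as a further description. Mia stood at 9371, 7935, 9248 and 7248 CPM with a Slc26a4 UMI and 3986, 2888, 4570.5 and 2437 without, with no overlap of libraries. Apoa4 was at 269, 149, 399.6 and 44.2 against 41.8, 8.53, 117 and 0 and Bricd5 at 2438, 2175, 4619 and 1267 against 1479.8, 1229, 2054 and 807, each higher with a Slc26a4 UMI within every library. Il17rb went the other way, at 41.7, 33.0, 10.2 and 22.1 with and 131, 158, 45.2 and 175 without. Pendrin cells that also met the supporting cell gate, which depth favours, were deeper (median of 3742 UMIs against 2112 for the others), and had less Apoc1 (mean 284 against 646 CPM) and less Fbln2 (67.8 against 168), with a near equal level of Slc26a4 (347 against 377). The genes whose counts spread most from cell to cell, beyond what counting gives, were Malat1, Ptgds, Mia, Vmo1, S100a1, Apoe, Rnase1 and 3 mitochondrial genes.

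Markers of other cell types were counted in the same cells. The 8 supporting cell markers summed to 3927, 2746, 2515 and 3336 CPM, with Otog the most abundant and none at 0, against 2414, 1231, 1303 and 930 in the other cells. The 10 hair cell markers summed to 234, 231, 176 and 330 CPM against 3552, 2512, 2945 and 2097, led by Cib2. The 8 dark and marginal cell markers summed to 431, 334, 222 and 303 CPM, above the 297, 218, 169 and 130 of the other cells in every library, with Atp1b2 the most abundant and none at 0, and 3.38% of pendrin cells carried 3 of them against 1.11% of the other cells. The 6 glial markers, led by Sox10, summed to 424, 331, 396 and 333 CPM against 235, 215, 272 and 492. The 6 melanocyte markers summed to 4.64, 29.9, 18.2 and 56.2 CPM, with 2 of them at 0 and Dct the highest. Among blood cells, the 6 erythroid markers, led by Hbb-bs, summed to 92.7, 8490, 6004 and 36407 CPM, and the 6 granulocyte markers, led by S100a8, to 2.32, 4928, 19.8 and 56.2 CPM. No defining marker of these 2 lists was at 0. Replicate 1 held the fewest blood transcripts and replicate 5 held the most hemoglobin, and 19 pendrin cells had 3 or more erythroid markers. Each comparison below was repeated without the cells that carried 3 markers of a blood cell type, a choice made after seeing the data. The genes called higher and lower in pendrin cells were then 72 and 103 against supporting cells, 492 and 456 against Nox3 cells, 550 and 502 against dark cells, and 486 and 314 between the organs, each within 1.5 times the count with those cells.

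Genes of ion transport were described from gene lists. Of 30 acid and base transport genes, 28 had a UMI in pendrin cells and 7 reached 50 CPM. The carbonic anhydrases Car3, Car2, Car13 and Car14, which interconvert carbon dioxide and bicarbonate, were at 259 ± 173, 77.1 ± 44.0, 72.6 ± 14.96 and 65.8 ± 18.1 CPM (SD, n = 4). Slc26a7, an anion exchanger related to pendrin, was at 431, 7.18, 22.8 and 146 CPM, high in replicates 1 and 5 and low in the others. The transcription factor Foxi1 and the proton pump subunit Atp6v1b1, both typical of pendrin-bearing cells elsewhere, had 5 UMIs each in all 710 cells. Of 37 genes of potassium, sodium and chloride transport 15 reached 50 CPM. These included the sodium pump subunit Atp1b1 (790.2 ± 155 CPM), the pump regulator Fxyd1 (374 ± 86.9), the inward rectifier Kcnj16 (337 ± 131), the ATP-gated channel P2rx2 (171 ± 32.9) and the epithelial sodium channel subunit Scnn1a (61.9 ± 30.7). The calcium channel genes Trpv5 and Trpv6 had 0 and 1 UMI.

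Epithelial adhesion and keratin genes were counted in every library. Epcam was at 1880.0, 2309, 3664 and 2579.9 CPM, Krt18 at 329, 294, 342 and 255 and Krt8 at 183, 228, 208 and 109. Of 29 tight junction genes 10 reached 50 CPM, led by the claudins Cldn9 (578 ± 98.2 CPM), Cldn3 (339 ± 51.5), Cldn7 (331 ± 49.5) and Cldn8 (177 ± 24.6). Of 47 transcription factors of the developing ear 46 had a UMI and 18 reached 50 CPM. The most counted were Meis2 (432 ± 40.8 CPM), Sox9 (308 ± 59.2), Sox10 (288 ± 59.1) and Id4 (249 ± 67.0), and the vestibular homeobox genes Hmx2 and Hmx3 were at 85.7 ± 26.6 and 55.8 ± 25.1. Among 26 hormone receptor and response genes the estrogen receptor genes Esr1 and Esr2 had 1 and 0 UMIs. Of 21 senescence and cell cycle inhibitor genes Cdkn2a had no UMI, and Cdkn1b was at 117 ± 33.7 CPM.

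The first tested question was how pendrin cells differ from supporting cells of the same libraries, here 275 cells with 3 or more of the 7 supporting cell genes. They met no pendrin, hair cell, dark cell or macrophage gate, while a Nox3 UMI did not exclude a cell. The genes of both gates and of the hair cell gate were left out, and UMIs were summed per library (64, 86, 94 and 31 supporting cells) and tested with edgeR's quasi-likelihood test with Benjamini-Hochberg adjustment over all genes. Of 4754 genes tested 164 (3.45%) passed an adjusted p of 0.05, 67 (1.41%) higher and 97 (2.04%) lower in pendrin cells. Both populations were chosen by transcripts, so the p-values say that a difference recurred over the libraries and not that the populations are distinct cell types.

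Apoc1 had the largest rise of the genes named, at 559, 294, 381 and 374 CPM in pendrin cells and 23.3, 22.3, 28.8 and 12.7 in supporting cells, without overlap (log2 fold change 4.06 ± 0.30 SE, edgeR adjusted p = 3.4e-06). Tmem176a and Tmem176b, a pair of membrane proteins encoded next to each other, were both higher: Tmem176b was at 3721, 2828, 2307 and 1752 against 467, 474, 115 and 509 CPM (log2 fold change 2.75 ± 0.39) and Tmem176a at 2582, 2097, 1610.1 and 1281 against 272, 436, 52.7 and 280.2. Every pendrin library was above every supporting cell library for both genes. Enpep, aminopeptidase A, which cleaves angiotensin, was at 183, 213, 149 and 172 against 0, 35.01, 19.2 and 0 CPM (log2 fold change 3.14 ± 0.41). Cnmd, which encodes chondromodulin, stood at 259.6, 167, 91.1 and 239.6 against 31.1, 19.1, 4.79 and 38.2, and Sostdc1, a secreted antagonist of BMP and Wnt signals, at 102, 89.7, 79.0 and 59.9 against 15.6, 3.18, 14.4 and 12.7. The remaining 4 of the 10 largest rises were Ctxn3, Fbln2, Chst9, a sulfotransferase, and Gm10648, with log2 fold changes of 3.58, 3.19, 2.69 and 2.67.

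On the lower side, Hhla1 fell furthest, at 4.64, 23.9, 82.0 and 0 CPM in pendrin cells and 1019, 312, 431 and 560.4 in supporting cells (log2 fold change -4.17 ± 0.60, edgeR adjusted p = 0.0015). Zpld1, a zona pellucida domain protein of the cupula, was at 18.5, 16.1, 28.9 and 11.2 against 148, 111, 211 and 217 CPM (log2 fold change -3.10 ± 0.31, edgeR adjusted p = 7.7e-05). Both were separate in all libraries. Slc18a2, a vesicular monoamine transporter, and Penk, which encodes enkephalins, were lower by log2 fold changes of -2.48 and -2.45. The transcription factors Isl1 and Ebf1 were at means of 45.3 and 115 CPM against 185 and 438. Luzp2, Racgap1, Ptprq and Stox1 made up the 10, with log2 fold changes from -2.13 to -1.79. The 10 hair cell markers summed to 412, 417, 695 and 280 CPM in the supporting cells against 234, 231, 176 and 330 in pendrin cells, with Otof the highest in the former; their part in these differences was not tested. The 6 erythroid markers, led by Hbb-bs and with 1 at 0, summed to 156, 13773, 14342 and 560.4 CPM in the supporting cells, and the 6 granulocyte markers, led by S100a9 and with none at 0, to 0, 79.6, 28.8 and 23538 CPM.

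By function, 15 of 37 potassium, sodium and chloride transport genes could be tested, of which 2 rose and 3 fell (median log2 fold change 0.52, against -0.01 over all genes). Atp1b1, the sodium pump beta subunit, was at 867, 722, 962 and 610.3 CPM against 241, 429.6, 206 and 204, and Fxyd1 at 491, 328, 383 and 292 against 148, 127, 81.5 and 153, both higher in every library (edgeR adjusted p = 0.0063 and 0.002). Among the genes that fell was the potassium channel Kcnj10, with a log2 fold change of -1.07. Cldn8 rose, at 190.1, 198, 178 and 142 against 31.1, 70.0, 52.7 and 50.9 CPM, and was 1 of 2 called among 14 tight junction genes tested, the other being Marveld3 (-1.18). Of 9 lipid genes tested 2 rose, both apolipoproteins: Apoc1 and Apoe (log2 fold change 1.21 ± 0.29, edgeR adjusted p = 0.03).

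Of 8 genes of cysteine, taurine and glutathione 2 fell. They were Slc6a6, the taurine transporter (107, 76.0, 74.4 and 67.4 against 342, 210.0, 235 and 166 CPM), and Gclc, the first enzyme of glutathione synthesis (log2 fold change -1.71). Of the genes of the otolith and gel matrix 8 were tested and 1 fell, Sparcl1 (-1.62). Otol1, which encodes otolin of the otoliths, was at 1175, 496, 693 and 805 CPM in pendrin cells and 1027, 493, 887 and 1121 in supporting cells, and Tecta at 116, 158, 98.7 and 124 and 85.6, 95.5, 125 and 115, with overlapping libraries. Car14 (log2 fold change -1.77) was the 1 call among 9 acid and base transport genes tested, Gjb6, connexin 30, 1 of 2 gap junction genes (lower, at means of 104 and 213 CPM), Gata2 1 of 21 transcription factors (1.91), Jag1, a Notch ligand, 1 of 20 signalling genes (-1.62) and Cxcl12 1 of 4 chemokine and complement genes (-1.58). In 8 further lists, with 71 genes tested between them, edgeR called no gene without a block, while 18 genes had an unadjusted p below 0.05 and DESeq2 called 0. With the library as a block, which the shared pools of mice allow, 11 of the 71 were called, where the same fit called 361 of all 4754 genes tested (7.59%), 147 higher (3.09%) and 214 lower (4.5%). The lists were oxidative stress (24 tested), senescence (10), adhesion (9), dissociation stress (9), antigen presentation (8), calcium transport (5), hormone receptors (5) and aquaporins (1). Of the 24 oxidative stress genes 4 rose under the block, among them Sod3 and Gpx3 (log2 fold changes 1.44 and 1.50, edgeR adjusted p = 0.0092 and 1.1e-04). Of the 15 potassium, sodium and chloride transport genes 5 rose and 4 fell under it, of the 20 signalling genes 5 fell, among them Dkk3 and Spp1, of the 21 transcription factors 2 rose and 3 fell, Hmx3 among the rises and Sox9 among the falls, and both gap junction genes were lower.

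The number of calls changed with single libraries and with the choice of cells. The population pairs come from the same pools of mice, and with the library as a block 147 genes were higher and 214 lower. Without replicate 4 the counts were 24 and 23, without replicate 1 they were 43 and 46, and without replicate 3 they were 45 and 42. Without the pendrin cells that met the supporting, dark or macrophage gate they were 139 and 235. A Nox3 UMI did not remove a cell here or where cells that met another gate are left out below. Of the genes named, the following missed the threshold without replicate 4, with the edgeR adjusted p in brackets: Apoe (0.243), Atp1b1 (0.104), Chst9 (0.0897), Cxcl12 (0.104), Ebf1 (0.0611), Gata2 (0.218), Gjb6 (0.283), Gm10648 (0.0613), Kcnj10 (0.226), Marveld3 (0.104), Ptprq (0.284), Racgap1 (0.192) and Stox1 (0.0934). Without replicate 1 Apoe (0.165), Atp1b1 (0.0528), Cxcl12 (0.135), Ebf1 (0.0521), Gata2 (0.124), Gjb6 (0.095), Marveld3 (0.0996), Ptprq (0.0756) and Racgap1 (0.101) did so, without replicate 3 Apoe (0.0728), Gjb6 (0.0616), Kcnj10 (0.102), Marveld3 (0.372) and Stox1 (0.0903), and without replicate 5 Cxcl12 (0.0572), Gata2 (0.0764), Gjb6 (0.119) and Kcnj10 (0.0706). Gjb6 and Stox1 also missed it among pendrin cells with a Slc26a4 UMI, Gjb6 without the blood-marker cells, and Ptprq with replicate 2 in place of replicate 1.

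The second question was how pendrin cells differ from 568 other cells with a UMI of Nox3, the NADPH oxidase subunit needed for otoconia, that met no other gate. Of 5453 genes tested 948 (17.4%) passed, 499 (9.15%) higher and 449 (8.23%) lower in pendrin cells. Matrix genes are given first. Otog was at 2242, 1195, 1416 and 1490.3 CPM in pendrin cells and 0, 22.1, 14.6 and 0 in Nox3 cells (log2 fold change 6.61 ± 0.40, edgeR adjusted p = 1.3e-09), Otol1 at 1175, 496, 693 and 805 against 0, 9.96, 4.86 and 0 and Otogl at 387, 312, 249 and 427 against 0, 4.43, 0 and 7.93. Each pendrin library was far above each Nox3 library. Otog, Otogl, Otoa, Sox2 and Slc1a3 belong to the supporting cell gate, which no Nox3 cell was allowed to meet and 315 pendrin cells did, so the choice of cells raises their differences. Without the pendrin cells that met the supporting, dark or macrophage gate, the log2 fold change was 4.30 for Otog and 4.62 for Otogl. It was 5.62 for Otol1, which no gate uses. Pendrin cells with a Nox3 UMI stayed in. Of the 9 matrix genes tested that no gate uses 3 rose and 2 fell (median log2 fold change -0.088, over all genes -0.00035). Those that fell were Coch (-0.98) and Cyba (-1.68), a partner subunit of the NADPH oxidase.

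Sfrp1, a secreted Wnt antagonist, was at 758, 516, 694 and 584 CPM against 0, 5.53, 0 and 0 (log2 fold change 7.33 ± 0.38). Muc15, a membrane mucin, was at 325, 264, 293 and 311 against 0, 4.43, 0 and 0, and Kcnj16 at 454, 209, 447 and 239.6 against 9.05, 5.53, 0 and 0. Tspan8, a tetraspanin, and Sox21, a transcription factor, had no UMI in any Nox3 library, so pendrin cells were at least 63.2-fold and 27.1-fold higher (a floor of 3 UMIs over the Nox3 group). Ctxn3 (6.29) and Vmo1 (6.11) were the other two of the 10, and Vmo1 ranged from 60.4 to 1159 CPM between pendrin libraries.

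Among the largest falls was that of Vcan, which encodes versican, at 4.64, 82.5, 27.3 and 86.1 CPM in pendrin cells and 2072, 2617, 1556 and 2571 in Nox3 cells (log2 fold change -5.47 ± 0.47, edgeR adjusted p = 6.5e-08), and of the receptors Htr2c (serotonin, -5.38) and Chrm2 (acetylcholine, 3 UMIs in all pendrin cells, 0.679 against 72.7 CPM). The phosphodiesterase Pde10a, the ligand Wnt3, the sodium channel Scn7a, the nitric oxide synthase Nos2, the matrix protein Ogn and the gene model Gm4117 had log2 fold changes from -5.05 to -4.40. The gene model Gm15832, with 3 UMIs in all pendrin cells, completed the 10 (means of 1.31 and 58.2 CPM).

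**Figure D3:**
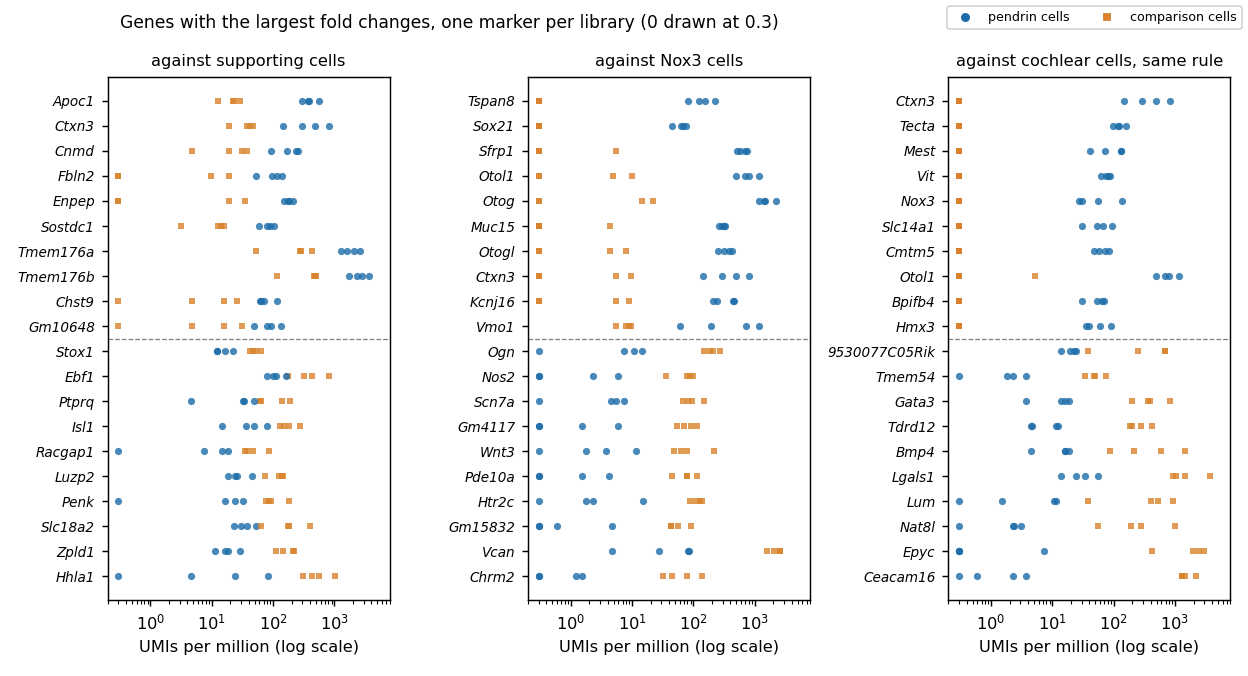
The 10 genes with the largest rises (above the dashed line) and falls (below it) in pendrin cells against supporting cells, Nox3 cells and cochlear cells of the same rule, in CPM on a log axis with 1 marker per library. Blue circles are pendrin cells of the vestibule and orange squares the comparison cells, and by the rule that chose the genes the 2 colours do not overlap; against the cochlea 9 of the 10 rises have all orange squares at 0.

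Gene groups differed in both directions. Of 17 tight junction genes tested 2 rose and 6 fell (median log2 fold change -0.36), including the claudins Cldn4 (-3.05), Cldn8 (-1.74), Cldn3 (-1.06) and Cldn7 (-0.76). Cldn8 was thus higher in pendrin cells than in supporting cells and lower than in Nox3 cells, at means of 177, 51.2 and 572 CPM. Of 22 transcription factors outside the gates 9 rose and 5 fell (median 0.42). Sox2, a supporting cell gate gene, was at 209, 127, 126 and 139 CPM against 9.05, 1.11, 4.86 and 0, and Sox9, Id4 and Tbx2 rose by log2 fold changes of 1.83, 3.00 and 1.99. Tbx3 (-2.14), Gata2 (-1.48) and Meis2 (-0.67) fell.

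Of 16 potassium, sodium and chloride transport genes outside the gates 6 rose and 4 fell. Of 23 signalling genes 9 rose, including Igfbp5 (3.57), an IGF-binding protein, and Dkk3 (4.30), and 9 fell, including Sfrp5 (-3.71), Aldh1a1 (-1.31), which makes retinoic acid, and Rspo3 (-2.54), a Wnt enhancer. Of 25 oxidative stress genes 4 rose and 3 fell, the falls including extracellular superoxide dismutase Sod3 (165, 132, 88.1 and 56.2 against 2217, 1511, 773 and 936 CPM). Of 11 antigen presentation and interferon genes 3 were called, all lower (Ifitm3, B2m and Bst2), and of 6 hormone receptor genes 2 rose, among them Sgk1 (2.78). The 6 erythroid markers summed to 81.4, 11184, 67975 and 643 CPM in the Nox3 cells, and the 6 granulocyte markers to 11403 CPM in their replicate 5.

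Without replicate 3, which holds 368 of the Nox3 cells, 273 genes were higher and 257 lower. Without the pendrin cells that met the supporting, dark or macrophage gate, but with those that held a Nox3 UMI, the counts were 179 and 210. There Otoa (-0.16), Sparcl1 (-0.43) and Hif1a (-0.05), called higher with all pendrin cells, had log2 fold changes below 0 that did not pass. In the same setting Sox9 (0.62, 0.339), Meis2 (-0.11, 0.877), Coch (-0.44, 0.679), B2m (-0.90, 0.0938) and Bst2 (-0.32, 0.73) were no longer called (log2 fold change and edgeR adjusted p in brackets). Coch and Bst2 also missed the threshold among pendrin cells with a Slc26a4 UMI, Bst2 with 4 or more rule genes, and Meis2 and Cldn7 with no filter on low counts. Of the genes named, those that missed the threshold (edgeR adjusted p in brackets) were Bst2 (0.0691), Meis2 (0.0611), Otoa (0.0732) and Hif1a (0.0679) without replicate 3, Coch (0.194), Bst2 (0.203) and Meis2 (0.0549) without replicate 4, Coch (0.115) and Otoa (0.0981) without replicate 5 and Meis2 (0.086) without replicate 1.

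Dark cells were the third population, 64 cells with 3 or more of 7 dark cell genes, among them Kcne1, Kcnq1, Slc12a2, Bsnd and Esrrb. Replicate 1 held 4 of them and was not used on that side, which left 36, 13 and 11 cells in replicates 3, 4 and 5. Of 4778 genes tested 1079 (22.6%) passed, 583 (12.2%) higher and 496 (10.4%) lower in pendrin cells. The gate also took in melanocyte transcripts: the 6 melanocyte markers, led by Dct, summed to 7047, 61.1 and 54.5 CPM in the 3 dark cell libraries, with 1 marker at 0. Without dark cells that carried 2 or more of these markers 588 genes were higher and 486 lower.

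The populations' gates again favour Otog, Otogl, Otoa and Sox2, since no dark cell was allowed to meet the supporting cell gate. Otog, Otogl, Muc15, Slitrk6, Tecta and Corin had no UMI in the dark cells, which makes pendrin cells at least 161-, 36.2-, 32.1-, 24.9-, 15.4- and 11.6-fold higher against a floor of 3 UMIs over the group. D430041D05Rik, Apoa4, Ptpre and B4galt4 were also at 0 there, and Apoa4 missed the threshold without replicate 4 (edgeR adjusted p = 0.051). Of the 8 matrix genes tested that no gate uses 3 rose, Otol1, Tecta and Sparc, and 1 fell (median log2 fold change -0.067, over all genes 0.08). The fall was of Sparcl1 (-1.30).

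Atp1b2, a beta subunit of the sodium pump, went the other way, at 227, 174, 102 and 209.7 CPM in pendrin cells and 1342, 2017 and 1077 in dark cells of replicates 3, 4 and 5 (log2 fold change -3.01 ± 0.31, edgeR adjusted p = 1.7e-05). It was higher in every dark cell library. Fxyd1 (log2 fold change 2.02), P2rx2 (3 UMIs in the dark cells) and Kcnj16 (1 UMI) were higher in pendrin cells, and the potassium channel Kcnk1 was lower (-1.70), so that 3 of 14 potassium, sodium and chloride transport genes rose and 3 fell. Of 11 lipid genes 3 rose, Apoe (2.56), Apoc1 (4.02) and Scd2 (1.11), and 5 fell, among them the fatty acid binding protein Fabp3 (-5.03) and Ppargc1a (-2.53), a driver of mitochondrial growth. Of 14 tight junction genes 5 rose, among them Cldn9 (2.13) and Cldn3 (1.67), and 1 fell, Cgnl1 (-1.43).

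The falls with the largest fold change included Mrap, an accessory protein of melanocortin receptors, with no UMI in pendrin cells and 59.6, 76.4 and 54.5 CPM in dark cells (at least 62.4-fold lower), and Gpx6, Cenpw, Rgs4, Calca, Rab37, Rasgef1c, Lrfn5, Stac and 4930511M06Rik. Cenpw, a centromere protein gene, was at 2.32, 4.19, 0 and 3.74 CPM against 278, 382 and 286. Of 26 oxidative stress genes 3 rose and 7 fell, including Mt3, a metallothionein (-4.56), and Gpx3 (-2.61). Of 20 signalling genes 9 rose, among them Igfbp5 (4.25), and 4 fell, among them Rspo3 (-4.44) and Spp1 (-2.68). Of 24 transcription factors outside the gates 7 rose, among them Meis2 (1.48), and 3 fell, Hmx3 (-1.71), Tbx3 and Gata3 (-2.73). The 6 erythroid markers summed to 268, 107 and 232 CPM in the dark cells, below replicates 3, 4 and 5 of the pendrin cells, and Hbb-bs was called higher. Without replicate 3 the counts were 366 higher and 268 lower, with Sparcl1 (0.127), Tbx3 (0.283) and Cgnl1 (0.152) no longer called (edgeR adjusted p in brackets), and without replicate 4 they were 376 and 346, with Sparcl1 (0.094), Tbx3 (0.142), Hbb-bs (0.0657) and Scd2 (0.0633) no longer called. Without the pendrin cells that met another gate Scd2 (0.61, 0.116) and Tbx3 (-0.65, 0.168) were not called (log2 fold change and edgeR adjusted p in brackets).

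The last question was whether cells that meet the rule in the cochlea are alike. There were 11, 138, 37 and 31 of them, and they carried Slc26a4 at 168, 274, 335 and 392 CPM, a range that overlaps that of the vestibular cells. Abca13, however, had 1 UMI in all 217 cochlear cells, and Cidea was at 0, 6.43, 8.97 and 16.4 CPM and Mia at 187, 343, 275 and 436, and the 7-gene rule was met with exactly 3 genes in 166 of the 217. These are rule genes and were not tested.

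Of 5778 other genes 763 (13.2%) passed, 469 (8.12%) higher and 294 (5.09%) lower in the vestibular cells. Ctxn3, Tecta, Mest and Vit had no UMI in the cochlear cells and were at least 190.0-, 61.2-, 40.8- and 31.8-fold higher in the vestibule. Nox3, Slc14a1, a urea transporter, Cmtm5, Bpifb4 and Hmx3 were likewise at 0 in the cochlea. Otol1 was at 1175, 496, 693 and 805 CPM in the vestibule and 0, 5.14, 0 and 0 in the cochlea (log2 fold change 8.02 ± 0.52, edgeR adjusted p = 1.2e-07), Otog at 2242, 1195, 1416 and 1490.3 against 0, 82.3, 41.9 and 87.2 and Coch at 719, 1191, 559 and 554 against 0, 54.0, 5.98 and 76.3. No libraries overlapped for these genes. Supporting cell markers differed between the organs as well: 315 of 710 vestibular cells (44.4%) and 31 of 217 cochlear cells (14.3%) met the supporting cell gate, and the 8 markers summed to 486, 653, 586 and 987 CPM in the cochlear cells, led by Otogl and with 1 at 0, below every vestibular library. Without the cells that met another gate the log2 fold change was 4.29 for Otog and 9.71 for Otol1, both called, while Otoa (1.01, 0.0758) and Sparcl1 (1.44, 0.0635) missed the threshold (edgeR adjusted p after the comma) and Sox2, called higher with all cells (1.80), had too few UMIs to be tested.

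Ceacam16, a protein of the tectorial membrane, was at 2.32, 0.598, 0 and 3.74 CPM in the vestibule and 1309, 1461, 1297 and 2180.1 in the cochlea (3 UMIs in all pendrin cells, edgeR adjusted p = 1.9e-09), and Epyc, epiphycan of the extracellular matrix, at 0, 7.18, 0 and 0 against 2430.3, 2938, 1970.1 and 414. Of the 10 matrix genes tested that no gate uses 4 rose in the vestibule and these 2 fell (median log2 fold change 1.04, over all genes 0.02). The other large falls were of Nat8l, which makes N-acetylaspartate, the matrix protein Lum, the lectin Lgals1, the ligand Bmp4, Tdrd12, Gata3, Tmem54 and 9530077C05Rik. Lgals1 was at 13.9, 55.0, 24.3 and 33.7 against 1458, 3776, 1043 and 921 CPM and Bmp4 at 16.2, 16.1, 4.56 and 18.7 against 1439, 216, 586 and 87.2, without overlap but with a spread of more than 10-fold between cochlear libraries for Bmp4.

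Transcription factors were called in both directions. Of 27 outside the gates 5 rose in the vestibule, among them Meis2 (399, 397, 477 and 457 against 0, 30.8, 32.9 and 43.6 CPM), Hmx2 (4.78) and Dlx6 (1 UMI in the cochlear cells). In turn 7 were higher in the cochlea, among them Nr2f1 (88.1, 44.9, 18.2 and 78.6 against 523, 582, 430.5 and 474 CPM), Gata3 (18.5, 16.1, 13.7 and 3.74 against 841, 397, 359 and 202), Irx3 (-3.99) and Id3 (-1.63). Both tested gap junction genes were lower in the vestibule, Gjb2, connexin 26, at 246, 211, 153 and 206 against 953, 747, 667 and 387 CPM and Gjb6 at 141, 136, 71.4 and 67.4 against 748, 482, 368 and 278. Of 16 potassium, sodium and chloride transport genes 3 rose and 2 fell, Fxyd6 (-3.63) and Slc12a7 (-2.20). Of 11 acid and base transport genes 4 rose, led by Car3 (1.99, with overlapping libraries), and 2 fell, Car13 (-1.64) and Car2 (-1.51).

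Of 24 signalling genes 9 rose, including Dkk3 (3.14), and 2 fell, Clu, clusterin (289.8, 301, 102 and 367 against 2617, 1938, 4033 and 1542 CPM), and Bmp4. Of 10 immediate early and dissociation stress genes 6 were called, all lower in the vestibule (median log2 fold change -1.04), among them Jun, Egr1 (13.9, 22.7, 25.8 and 22.5 against 93.5, 54.0, 164 and 267 CPM) and Dusp1 (-3.10). These genes respond to tissue dissociation, which was done on each organ separately, and the organ and its handling cannot be told apart. The 6 erythroid markers summed to 1289.9, 532, 2.99 and 76.3 CPM in the cochlear cells, below the vestibular cells in replicates 3, 4 and 5 and above them in replicate 1, and Hbb-bs was called higher in the vestibule.

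The counts in this comparison also changed with single libraries. Without replicate 3 they were 210 higher and 135 lower, and without replicate 4 they were 299 and 183. With 4 or more rule genes required they were 164 and 88, and without the cells that met another gate 217 and 182; in the former Krt8, called higher with all cells, had a log2 fold change of -0.16 that did not pass. Among the genes named, Car2, Dkk3, Gjb2, Gjb6, Jun and Nr2f1 were not called with 4 or more rule genes, Car2, Car3, Gjb2, Gjb6 and Jun were not called among cells with a Slc26a4 UMI, and Car2 and Krt8 were not called without the cells that met another gate. Of these and the other genes, those that missed the threshold (edgeR adjusted p in brackets) were Car3 (0.0955) and Jun (0.0634) without replicate 1, Krt8 (0.189) and Hbb-bs (0.0641) without replicate 3, Car2 (0.0827), Car3 (0.0631) and Krt8 (0.188) without replicate 4 and Hbb-bs (0.108) without replicate 5.

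**Figure D4:**
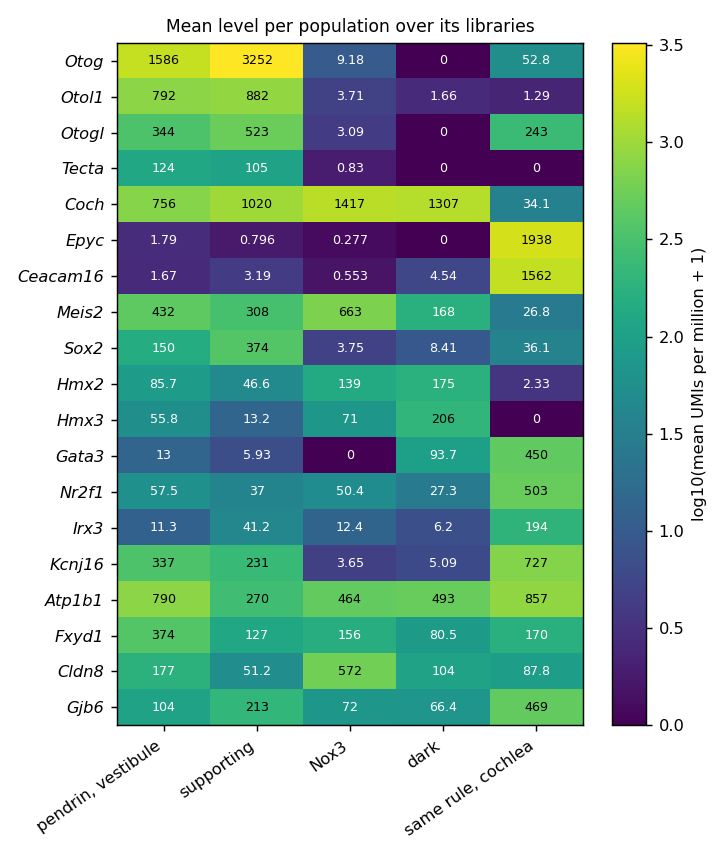
Mean level in CPM, printed in each cell and coloured as log10(mean + 1), of the genes named in pendrin cells of the vestibule, supporting cells, Nox3 cells, dark cells (3 libraries; the others 4) and cochlear cells of the same rule. Otol1 and Tecta stand at 792 and 124 in pendrin cells and 882 and 105 in supporting cells and are under 5 in the other columns, and Epyc, Ceacam16, Gata3 and Nr2f1 are highest in the cochlear cells.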

How the data were processed

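The deposited files hold UMI counts per gene and cell barcode, whole numbers that the authors made from 10x 3′ reads of dissociated cells with Cell Ranger (version 6.1.2 in the submitters' processing notes; the file headers name 5.0.1 or 6.1.2) against mm10. They are raw counts, with no normalization. The 10 deposited libraries (5 per organ) held 1384, 1313, 12397, 1130 and 1788 barcodes (cochlea, replicates 1 to 5) and 1689, 1641, 11379, 5305 and 3711 (vestibule). Total UMIs ran from 2592425 to 26974948 per library. The 2 repeats were left out of the counts and used only as an alternative for replicate 1.

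The rule, the comparison populations and all gene lists were chosen with earlier results of these data known, so no list is independent evidence. A comparison cell had 3 or more genes of its own gate (1 Nox3 UMI for Nox3 cells) and met no other gate. The exception was a Nox3 UMI, which did not exclude a supporting or dark cell. UMIs were summed per library where a population had 10 or more cells there, and fitted with edgeR 4.0.16 (R 4.3.3): TMM, filterByExpr, quasi-likelihood test, Benjamini-Hochberg threshold 0.05. Standard errors are the log2 fold change divided by the square root of F. CPM levels use all UMIs of the summed cells. Genes named per comparison were the 10 with the largest change each way among those called, at 50 CPM or more in the higher population and with no overlap of libraries. The genes of the list groups were the most abundant members called, and a few chosen after their values were seen. On simulated data with 200 genes changed by a log2 value of 2, the same steps recovered 97.9% (supporting), 88.1% (dark), 100% (Nox3) and 100% (cochlea) of those tested, with 6.40, 8.60, 6.22 and 4.85% of calls false. The p-values cover the spread between pools of mice.

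Populations of the same library come from the same pool of mice, so within the vestibule the numbers pair the samples; deviations of same-numbered sums correlated at 0.0760 to 0.362 (supporting), 0.121 to 0.186 (dark) and 0.103 to 0.268 (Nox3). Alternatives were DESeq2 1.42.0 and its size factors, no filter, a library block, each library left out, stricter rules and cells without other gates. The last left out cells that met the supporting, dark or macrophage gate and kept those with a Nox3 UMI. Added after the data were seen were a Slc26a4 requirement, dark cells without melanocyte markers and cells without blood markers. Some genes of the lists are counted but not reported here by name.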

Additional observations from a re-analysis of the deposited data

Results flagged for a closer look

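In 2 of 25 groups of 4 libraries examined, 1 library stood far from the other 3 by Dixon's criterion, where chance gives about 1 in 20. The level of Slc26a4 in pendrin cells was 215.694 CPM in replicate 4 and 407 to 420 CPM in the others, although the share of pendrin cells in that library was not extreme. Slc26a4 is a rule gene, so the rule that chose the cells used the values flagged, and no conclusion is drawn from this flag. Gm43154, a gene model, was at 150.378 CPM in the pendrin cells of replicate 4 and at 56.2 to 71.9 CPM in the others.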

How the results depend on the processing

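The number of pendrin cells was 378 with each cell thinned to 1000 UMIs, 406 with 4 or more rule genes, 355 with a Slc26a4 UMI required, 467 with a limit of 2000 UMIs and 314 to 647 with 1 library left out. Counts of called genes are given as higher and lower in pendrin cells. Without a filter on low counts they were 229 and 242 (supporting), 1009 and 604 (dark), 960 and 570 (Nox3) and 929 and 509 (cochlea), with the median log2 fold change of all genes at 0.13, 0.67, 0.14 and 0.19. Without pendrin cells that met another gate, Nox3 not counted, they were 139 and 235, 408 and 395, 179 and 210, and 217 and 182. With 4 or more rule genes the cochlear counts were 164 and 88. With 1 library left out they ran from 24 to 73 and 23 to 92 (supporting), 366 to 604 and 268 to 476 (dark), 273 to 546 and 257 to 464 (Nox3) and 210 to 471 and 135 to 322 (cochlea). With the library as a block the supporting counts were 147 and 214, and the calls lost against dark cells were of Car13, Car2, Dlx6, Gclc and Krt8. Between organs, where nothing says that a number marks shared mice, the replicate block gave 544 and 377; same-numbered deviations correlated at 0.105, 0.149, 0.214 and 0.0995, each library best with its own number. DESeq2 called 69 and 103, 529 and 453, 444 and 371, and 384 and 246. The direction turned for Krt8 (cochlea, 4 or more rule genes, -0.16) and for Hif1a (-0.051), Otoa (-0.16) and Sparcl1 (-0.43) against Nox3 cells when pendrin cells that met another gate were left out; the cause was not tested. Without cells carrying blood markers the counts were 72 and 103, 550 and 502, 492 and 456, and 486 and 314. Of the 20 genes named per comparison, 14, 19, 20 and 20 passed under every setting in which they were tested. Not every named gene could be tested in every setting, and 252, 262, 243 and 234 values were obtained. The smallest sums were of dark cells (11 to 36 per library) and of the 11 cochlear cells of replicate 1.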

Other observations

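Some genes differed widely between the pools of mice within the pendrin cells, and those named here were chosen after their values were seen. Interferon-induced Ifit3 was at 195, 20.9, 3.04 and 3.74 CPM in replicates 1, 3, 4 and 5, high in replicate 1, and Ifitm1 at 2.32, 609, 9.11 and 116 CPM, high in replicate 3. In supporting cells Ifitm1 was at 31.1, 2100, 9.59 and 102 CPM. Lcn2, a siderophore-binding protein of innate defence, stood at 6.95, 309, 3.04 and 131 CPM, against 249, 608, 409 and 1409.7 in all other kept cells of the same libraries. The granulocyte marker S100a8 was also highest in replicate 3 of the pendrin cells (2.32, 2258, 10.6 and 18.7 CPM). The part of granulocyte transcripts in the values of Ifitm1 and Lcn2 was not tested. Ttr, transthyretin, which carries thyroid hormone and retinol, was at 459, 9.57, 3.04 and 97.4 CPM, against 21.0, 961, 455 and 114 in the other cells. Crhbp, which binds corticotropin-releasing hormone, was at 380.2, 2.99, 98.7 and 119.8 CPM. Each pool gave 1 vestibular library, so these differences have no replicate.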
